A study of Mus musculus with 2 samples.

Results

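The nuclear receptors examined here were 46 mouse genes, chosen as a list of family members and matched by gene symbol among the 43280 symbols in the files. All 46 symbols were found. RNA-seq had been performed on 1 library of mature hepatocytes (MHs) and 1 library of small hepatocytes (SHs) from the livers of the same C57BL6 mice, whose age the labels give as 20 weeks and the methods as younger. Both cell types were freshly isolated by collagenase perfusion, without any genetic or drug treatment. MHs and SHs were separated by centrifugation speed, and dead cells were removed from both with Percoll. MHs went through no sort. SHs, which the labels describe as hepatocyte progenitors, were sorted as CD31-CD45-EpCAM-ICAM-1+ cells. The methods describe cells of several mice, so each library may hold RNA of pooled animals.

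Nuclear receptors are transcription factors that bind DNA through zinc fingers, and most have a pocket that can hold a small lipophilic ligand such as a steroid, a bile acid, a fatty acid or a retinoid. Many bind DNA as pairs with a retinoid X receptor (RXR), and they exchange corepressors for coactivators when a ligand arrives. In hepatocytes they are known for setting cell identity (HNF4α), bile acid and sterol balance (FXR, SHP, LXR), the use of fatty acids (PPARα), the response to drugs (CAR, PXR) and the coupling of metabolism to the clock (REV-ERB).

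The depth was 16979136 counted reads in MHs and 42356444 in SHs, so genes with few reads were measured more precisely in SHs. Values are reads per 1000000 counted reads (RPM). Each difference is a log2 ratio of SHs over MHs after 0.5 reads were added to both counts. The interval in brackets (95%, Clopper-Pearson) covers counting error only, because there was 1 library per condition and the reads carry no molecular identifiers. No p-value was therefore computed, and the spread between animals is unknown. A gene was called lower or higher when the difference reached 1.5-fold and the interval lay wholly on that side of 0. The markers of hepatocytes fitted the label of both libraries, with 10 genes summing to 83894 RPM in MHs and 88721 RPM in SHs. Endothelial, macrophage and stellate cell markers were much lower in SHs than in MHs. The 12 endothelial genes summed to 106 RPM in MHs and 5.05 RPM in SHs, with Lyve1 at 0 in SHs, 11 macrophage genes to 22.6 and 1.04 RPM, with Marco at 0 in SHs, and 12 stellate genes to 21.5 and 2.43 RPM. All 14 markers of hepatocytes around the central vein were called lower in SHs, and they summed to 3296 RPM in MHs and 931 RPM in SHs. Here a lower level can stand for fewer cells of one kind or for less RNA in each cell, which cannot be told apart in such libraries.

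Nuclear receptor transcripts as a family were about as abundant in SHs as in MHs. The 46 genes together took 35499 reads or 2091 RPM in MHs and 90833 reads or 2144 RPM in SHs, a log2 ratio of 0.04 (0.02 to 0.05). Hnf4a and Rxra held 44.8% of these reads in MHs and 46.3% in SHs. Without them, the other 44 genes summed to 1155 RPM in MHs and 1151 RPM in SHs. At least 1 read was found for 40 members in MHs and for 44 in SHs.

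Of the 46 members, 36 had at least 10 reads over both libraries. Of these 36, 3 (8.33%) were called lower in SHs, namely Nr1i3, Pparg and Nr4a2, while 6.20% of all 15521 genes with at least 10 reads were called lower. No member was called higher, beside 3.50% of all genes. The interval lay wholly under 0 for 7 members (19.4%), beside 15.5% of all genes, and wholly above 0 for 12 members (33.3%), beside 16.8% of all genes. The median log2 ratio was 0.07 over the members and 0.02 over all genes. A difference of less than 1.2-fold in either direction was found for 22 of the 36 members (61.1%) and for 57.5% of all genes.

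Of the 30 members with at least 200 reads, only Nr1i3 was called lower (3.33%, beside 2.10% of all 9608 genes with as many reads). None of the 30 was called higher, beside 1.86% of all genes. The interval lay wholly under 0 for 5 of the 30 (16.7%, beside 16.9% of all genes) and wholly above 0 for 12 (40.0%, beside 23.2% of all genes). A difference of less than 1.2-fold was found for 66.7% of the 30 and for 75.4% of all genes with as many reads. Hence, with scaling by library totals, the members called lower were about as frequent as in the background, and intervals above 0 were more frequent. The difference stayed under 1.5-fold for every member with at least 200 reads except Nr1i3.

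**Figure D1:**
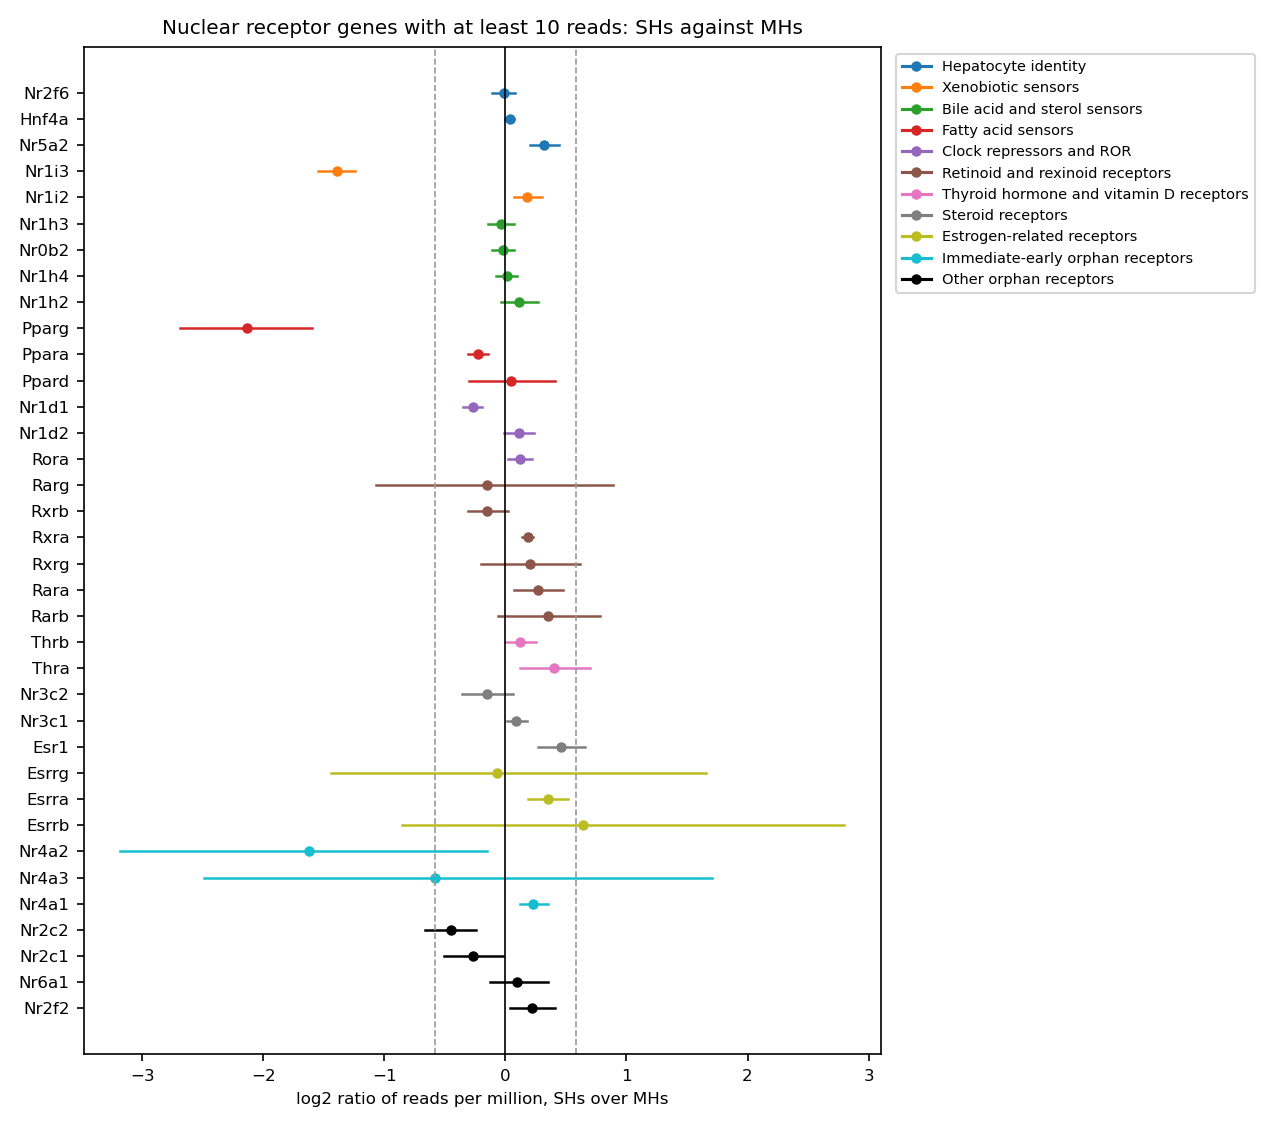
The log2 ratio of RPM in SHs over MHs is shown on the horizontal axis for the 36 nuclear receptor genes with at least 10 reads, grouped by role. Points are ratios, bars are 95% counting intervals and dashed lines mark 1.5-fold; Nr1i3, Pparg and Nr4a2 lie far to the left, while most other genes with narrow bars lie near 0.

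The receptors grouped here under hepatocyte identity, Hnf4a, Nr5a2, Nr2f6 and Hnf4g, differed by less than 1.5-fold where at least 10 reads were found. Hnf4a encodes HNF4α, the receptor that maintains the hepatocyte gene programme, and lies on chromosome 2 (mm10, 163506808 to 163572910, plus strand). It had 10753 reads (633 RPM) in MHs and 27488 reads (649 RPM) in SHs, a log2 ratio of 0.04 (0.003 to 0.068). When the libraries were scaled by TMM or by DESeq2 size factors, which rest on the typical gene in place of the total, the interval included 0. Nr5a2, which encodes LRH-1, an activator of bile acid synthesis genes, had 797 reads (46.9 RPM) in MHs and 2481 reads (58.6 RPM) in SHs. Its ratio of 0.32 (0.20 to 0.44) was above 0 and under 1.5-fold. Nr2f6, an orphan receptor of the COUP-TF group, differed little, with 1264 reads (74.4 RPM) in MHs and 3125 reads (73.8 RPM) in SHs and a ratio of -0.01 (-0.11 to 0.08). Of its annotated exon bases, 54.4% are shared with Ocel1 on the opposite strand, a gene with 78 and 187 reads. Hnf4g, the paralog of Hnf4a, had 2 reads in each library.

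The clearest difference within the family was in the receptors that sense drugs and other foreign compounds. Nr1i3 encodes CAR, which induces cytochrome P450 genes after exposure to drugs and is known to be more abundant around the central vein. It lies on chromosome 1 (mm10, 171213970 to 171220701, plus strand). Its level fell from 679 reads (40.0 RPM) in MHs to 645 reads (15.2 RPM) in SHs, a log2 ratio of -1.39 (-1.55 to -1.24) or 2.63-fold. Nr1i2 encodes PXR, the other main drug sensor, and had 892 reads (52.5 RPM) in MHs and 2530 reads (59.7 RPM) in SHs, a ratio of 0.18 (0.07 to 0.30). The ratios of the pair differed by 1.58 on the log2 scale (1.38 to 1.77). Per kilobase of exon, the level of Nr1i2 was 2.27 times that of Nr1i3 in MHs and 6.78 times that of Nr1i3 in SHs.

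The promoters of this pair are shown because one gene was lower in SHs and its paralog was not. The sequences come from RefSeq (GRCm38.p6) and run 5′ to 3′ from 250 bases before to 50 bases after the annotated start. The motifs searched on both strands were AGGTCA, the half-site that many nuclear receptors bind, and the E-box CACGTG, which clock factors bind. Capitals mark a match. The promoter of Nr1i3 (chr1:171213720-171214019, plus strand) holds 1 E-box, 244 bases before the start, and that of Nr1i2 (chr16:38294775-38295074, minus strand) holds neither motif.
Nr1i3: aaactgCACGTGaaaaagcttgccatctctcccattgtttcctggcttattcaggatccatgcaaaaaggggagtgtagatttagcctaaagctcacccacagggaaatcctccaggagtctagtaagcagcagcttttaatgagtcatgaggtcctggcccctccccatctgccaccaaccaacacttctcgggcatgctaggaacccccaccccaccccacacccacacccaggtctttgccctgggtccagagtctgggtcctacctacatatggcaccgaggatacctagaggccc
Nr1i2: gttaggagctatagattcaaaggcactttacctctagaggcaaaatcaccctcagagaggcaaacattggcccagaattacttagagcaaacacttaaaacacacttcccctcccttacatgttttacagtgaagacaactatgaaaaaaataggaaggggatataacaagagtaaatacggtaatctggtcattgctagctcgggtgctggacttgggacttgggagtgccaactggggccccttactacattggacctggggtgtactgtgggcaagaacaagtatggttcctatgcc

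The half-site is found in 16.3% of all 32851 promoters of this length and in 12 of 63 member promoters (19.0%), which belong to 11 of the 42 members with a sequence. The E-box is found in 7.15% of all promoters and in 6 of the 63 (9.52%), in the genes Esr2, Nr0b2, Nr1i3, Rara and Thrb. Members without a sequence in the table were Nr3c1, Nr5a1, Thra and Hnf4g. A match describes these letters only and does not show that a factor binds there.

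Of the annotated exon bases of Nr1i3, 74.9% are shared with Tomm40l on the opposite strand, and the use of strand in the counting is not given in the sources used here, so reads of both genes may be mixed. Tomm40l itself had 177 and 575 reads, with a ratio of 0.38, and its count may hold mixed reads as well. The part of such reads in the ratio of either gene was not tested. The fall of Nr1i3 also went together with the markers around the central vein, which had a median log2 ratio of -1.82, while the markers around the portal vein had a median of 0.37. The part of this zonal difference in the level of Nr1i3 was not tested.

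Many known target genes of CAR and PXR were lower in SHs. Of 20 listed genes, 19 had at least 10 reads, of which 6 were called lower, 2 were called higher and 14 had an interval under 0. Of all genes with at least 10 reads, 6.20% were called lower and 3.50% higher. Their intervals lay under 0 for 15.5% and above 0 for 16.8%. These shares are also the background for the lists below. The median log2 ratio of the listed genes was -0.29, beside 0.02 over all genes. Among the genes with at least 200 reads, the lowest were Cyp2c37 at -1.92 (-2.02 to -1.82) and Cyp2c29 at -1.59 (-1.64 to -1.55), both cytochrome P450 genes, with 2077 and 1370 reads for Cyp2c37 in MHs and SHs. The other genes called lower were Cyp2c50, Cyp2c54, Cyp2c55 and Cyp2b9, the last with 33 and 22 reads and a ratio of -1.89 (-2.75 to -1.08). Reads of the closely related Cyp2c genes could have been split among them by the authors' counting, so their single values are uncertain. Cyp3a11, a main drug-metabolising enzyme, was lower by less than 1.5-fold, at 3623 RPM in MHs and 2629.8 RPM in SHs. Cyp2b10, the classical CAR target, had 117 reads (6.89 RPM) in MHs and 320 reads (7.55 RPM) in SHs, and its interval included 0 (0.13, -0.18 to 0.45). The genes called higher were Gsta2, a glutathione transferase, at 0.65 (0.50 to 0.81), and Gadd45b, a stress-response gene, at 1.86 (1.35 to 2.45). The parts of Nr1i3 and of the zonal difference in the levels of these target genes were not tested.

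The fatty acid receptors differed from each other. Ppara encodes PPARα, which drives fatty acid oxidation in the fasted liver, and had 1668 reads (98.2 RPM) in MHs and 3557 reads (84.0 RPM) in SHs. Its ratio of -0.23 (-0.31 to -0.14) lay under 0 without reaching 1.5-fold. Ppard, the form found in most tissues, had 94 reads (5.54 RPM) in MHs and 243 reads (5.74 RPM) in SHs, a ratio of 0.05 (-0.30 to 0.41). Pparg, the form known from fat cells, macrophages and endothelium, lies on chromosome 6 (mm10, 115360951 to 115490399, plus strand). It fell from 81 reads (4.77 RPM) in MHs to 46 reads (1.09 RPM) in SHs, a ratio of -2.13 (-2.69 to -1.60) or 4.37-fold. Ppara and Pparg thus differed by 1.91 on the log2 scale (1.36 to 2.47), whereas Ppara and Ppard did not differ beyond counting error (-0.28, -0.65 to 0.08).

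The fall of Pparg went in the same direction as the markers of non-parenchymal cells. All 12 endothelial markers, 8 of the 9 macrophage markers with at least 10 reads and all 8 stellate markers with as many reads were called lower in SHs, with medians of -5.06, -5.06 and -3.09. The part of these cells in the level of Pparg was not tested. Nr2f2 encodes COUP-TFII and is known from veins and stellate cells. It had 336 reads (19.8 RPM) in MHs and 979 reads (23.1 RPM) in SHs, a ratio of 0.22 (0.04 to 0.41). Which cells the reads of Nr2f2 came from was not tested.

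**Figure D2:**
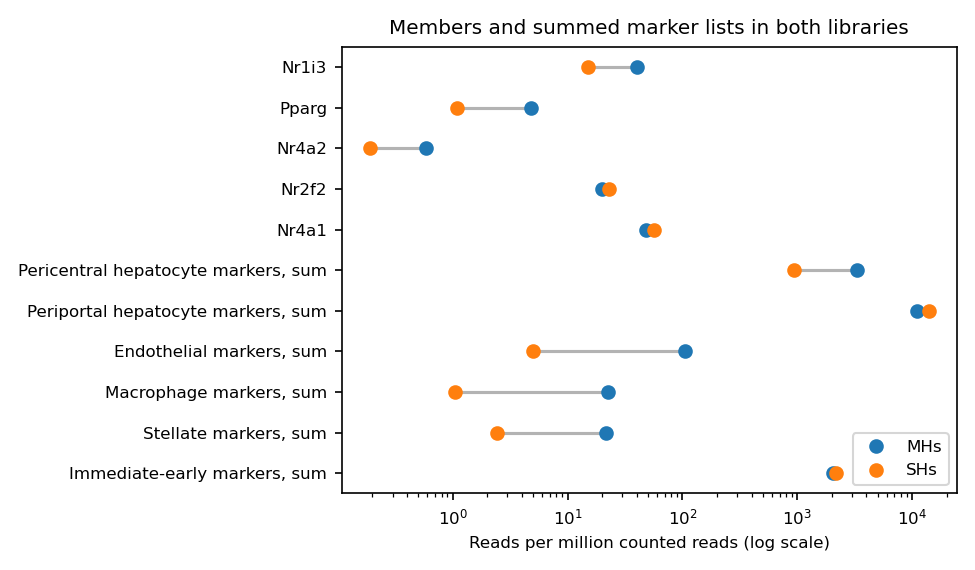
RPM in MHs and SHs are shown on a log axis for 5 nuclear receptor genes and for the summed levels of 6 marker lists. Nr1i3 fell from 40.0 to 15.2 RPM and the summed markers around the central vein from 3296 to 931 RPM, and Pparg fell from 4.77 to 1.09 RPM and the summed endothelial markers from 106 to 5.05 RPM.

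Target genes of PPARα were more often lower than higher in SHs. Of 24 listed genes, 7 were called lower and none higher, beside 6.20% and 3.50% of all genes, and the median was -0.21. The intervals lay under 0 for 14 genes and above 0 for 5, beside 15.5% and 16.8% of all genes. The lowest was Cd36, a fatty acid transporter, at -1.95 (-2.30 to -1.60), with 181 reads in MHs and 117 in SHs. Endothelial cells and macrophages also express Cd36. Cyp4a14, a fatty acid hydroxylase, followed at -1.64 (-1.84 to -1.45), and Cyp4a10, Acot1, Vnn1, Pdk4 and Fgf21 were the other genes called lower. The enzymes of β-oxidation did not share this difference. Acadm, the medium-chain acyl-CoA dehydrogenase, was at 166 RPM in MHs and 192 RPM in SHs (0.21, 0.15 to 0.27), and Acadl at 92.8 and 104 RPM (0.16, 0.08 to 0.25).

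The bile acid and sterol sensors were at nearly the same level in both libraries. Nr1h4 encodes FXR, the bile acid receptor, and had 1423 reads (83.8 RPM) in MHs and 3572 reads (84.3 RPM) in SHs, a ratio of 0.01 (-0.08 to 0.10). Nr0b2 encodes SHP, a repressor without a DNA-binding domain that FXR induces, and had 1357 reads (79.9 RPM) in MHs and 3344 reads (78.9 RPM) in SHs, a ratio of -0.02 (-0.11 to 0.07). Nr1h3 encodes LXRα, an oxysterol receptor abundant in liver, and had 1037 reads (61.1 RPM) and 2520 reads (59.5 RPM), a ratio of -0.04 (-0.14 to 0.07). Nr1h2 encodes the widely expressed LXRβ and had 467 reads (27.5 RPM) and 1257 reads (29.7 RPM), a ratio of 0.11 (-0.04 to 0.27). The intervals of all 4 genes included 0, and their summed reads gave a log2 ratio of 0.00 (-0.05 to 0.05).

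Targets of these sensors held a few genes called lower and more with small differences. Of 14 FXR targets, 12 had at least 10 reads, and Cyp7a1 and Pltp were called lower. The intervals lay under 0 for 8 of the 12 and above 0 for 1. Cyp7a1, the rate-limiting enzyme of bile acid synthesis, had 453 reads (26.7 RPM) in MHs and 296 reads (6.99 RPM) in SHs, a ratio of -1.93 (-2.15 to -1.72). Apoc2, an apolipoprotein, was the highest at 0.27 (0.21 to 0.33). The median of this list was -0.15, and -0.16 without Nr0b2, which is itself a member. Genes that FXR raises and genes that it lowers were not listed apart, so this median does not measure FXR activity. Of 13 LXR targets, Abcg1, Mylip, Lpl and Pltp were called lower and none higher, with a median of -0.08, 6 intervals under 0 and 3 above. Abcg1, Mylip and Lpl had at most 61 reads in either library, and Fasn, the fatty acid synthase, was the highest at 0.14 (0.12 to 0.17). Among 20 HNF4α targets, Cyp7a1 was again the only gene called lower, none was called higher and the median was -0.09. In this list 11 intervals lay under 0 and 5 above, and Pklr, the liver pyruvate kinase, was the highest at 0.35 (0.29 to 0.41).

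The REV-ERB pair, which represses clock and lipid genes in a daily rhythm, differed by a small amount. Nr1d1 (REV-ERBα) had 2014 reads (119 RPM) in MHs and 4163 reads (98.3 RPM) in SHs, a ratio of -0.27 (-0.35 to -0.19). Nr1d2 (REV-ERBβ) had 685 reads (40.3 RPM) in MHs and 1848 reads (43.6 RPM) in SHs, a ratio of 0.11 (-0.01 to 0.24). The ratios of the pair differed by -0.38 on the log2 scale (-0.53 to -0.23), and neither gene reached 1.5-fold. The 3′ end of Nr1d1 overlaps Thra on the opposite strand over 263 exon bases, which are 8.55% of the exon bases of Nr1d1 and 5.70% of those of Thra. Rora, an activator that competes with REV-ERB for DNA, had 1062 reads (62.5 RPM) in MHs and 2879 reads (68.0 RPM) in SHs. Its ratio of 0.12 (0.02 to 0.22) had an interval that included 0 with TMM or DESeq2 scaling. Rorb was at 0 in MHs and had 2 reads in SHs.

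The promoters of the REV-ERB pair are shown for the same reason, with the same marking. That of Nr1d1 (chr11:98775328-98775627, minus strand) holds neither motif, and that of Nr1d2 (chr14:18239057-18239356, minus strand) holds 1 half-site, 77 bases before the start.
Nr1d1: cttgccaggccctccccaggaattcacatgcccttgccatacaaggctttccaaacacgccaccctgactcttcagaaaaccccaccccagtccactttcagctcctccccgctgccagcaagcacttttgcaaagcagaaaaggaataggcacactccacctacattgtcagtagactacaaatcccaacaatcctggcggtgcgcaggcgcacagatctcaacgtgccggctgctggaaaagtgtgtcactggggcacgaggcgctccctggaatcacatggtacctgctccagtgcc
Nr1d2: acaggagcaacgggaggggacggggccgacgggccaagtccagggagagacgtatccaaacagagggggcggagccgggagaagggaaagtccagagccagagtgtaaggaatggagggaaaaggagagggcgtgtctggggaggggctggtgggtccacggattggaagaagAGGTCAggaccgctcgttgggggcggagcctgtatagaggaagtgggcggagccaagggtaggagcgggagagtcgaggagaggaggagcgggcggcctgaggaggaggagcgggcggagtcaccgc

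Other clock genes were found on both sides of 0. Of 20 listed genes, Per3, Bhlhe41 and Csnk1e were called lower and none was called higher, with a median of -0.12. Among the genes with at least 200 reads, Bhlhe41, a repressor of the clock, was the lowest at -0.67 (-1.06 to -0.26), and Per2, a core clock repressor, was the highest at 0.41 (0.22 to 0.60). The intervals lay under 0 for 6 genes and above 0 for 6. The hour at which each library was made is not given in the labels.

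Among the retinoid receptors, the RXR partner was slightly higher in SHs. Rxra, the main RXR of hepatocytes, had 5136 reads (302 RPM) in MHs and 14587 reads (344 RPM) in SHs, a ratio of 0.19 (0.14 to 0.23). Rxrb had 432 reads (25.4 RPM) and 973 reads (23.0 RPM), a ratio of -0.15 (-0.31 to 0.02), which differed from that of Rxra by 0.33 (0.16 to 0.51). Rxrg, which is known from muscle and brain, had 69 reads (4.06 RPM) and 198 reads (4.67 RPM), a ratio of 0.20 (-0.20 to 0.62). Of the retinoic acid receptors, Rara had 270 reads (15.9 RPM) in MHs and 814 reads (19.2 RPM) in SHs, a ratio of 0.27 (0.07 to 0.48). Rarb had 64 and 204 reads (0.35, -0.06 to 0.78) and shares 34.1% of its exon bases with Top2b on the opposite strand, and Rarg had 14 and 32 reads (-0.15, -1.07 to 0.89). None of the 6 genes reached 1.5-fold.

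Retinoic acid targets had the lowest median of the target lists, at -0.41 over 8 of 10 genes, with 4 called lower and none higher. Without Rarb, which is itself a member, the median was -0.69. Cyp26a1, which degrades retinoic acid, had 1924 reads (113 RPM) in MHs and 2969 reads (70.1 RPM) in SHs (-0.69, -0.78 to -0.61), and Rarres1 was at -0.77 (-0.88 to -0.66). The other genes called lower were Cyp26b1, with 49 reads in MHs and 4 in SHs, and Lrat, the retinol esterase, with 39 and 2 reads. Both are known from stellate cells, and Lrat is in the stellate list given above. Tgm2, a transglutaminase, was at 0.30 (0.23 to 0.37). With a minimum of 100 reads the median of this list turned to 0.01.

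The thyroid hormone receptors were at somewhat higher values in SHs. Thrb, the main form in liver, had 729 reads (42.9 RPM) in MHs and 1980 reads (46.7 RPM) in SHs, a ratio of 0.12 (-0.001 to 0.247). Thra had 129 reads (7.60 RPM) and 426 reads (10.1 RPM), a ratio of 0.40 (0.12 to 0.70). The pair did not differ beyond counting error (0.28, -0.03 to 0.60). Vdr, the vitamin D receptor, which is scarce in hepatocytes, was at 0 in MHs and had 1 read in SHs. Of 10 thyroid hormone targets, Dio1, Fgf21 and Cyp7a1 were called lower and none higher, with a median of -0.28. Fgf21 and Cyp7a1 also stand in the PPARα or FXR lists. Dio1, the deiodinase that activates thyroxine, had 1248 reads (73.5 RPM) in MHs and 1757 reads (41.5 RPM) in SHs (-0.83, -0.93 to -0.72), while Bcl3 was the highest at 0.36 (0.12 to 0.61).

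Steroid receptors were led by the glucocorticoid receptor. Nr3c1, which encodes it, had 1536 reads (90.5 RPM) in MHs and 4090 reads (96.6 RPM) in SHs, and its ratio of 0.09 (0.01 to 0.18) had an interval that included 0 with TMM or DESeq2 scaling. Nr3c2, the mineralocorticoid receptor, had 278 reads (16.4 RPM) and 625 reads (14.8 RPM), a ratio of -0.15 (-0.36 to 0.06). Esr1 encodes oestrogen receptor α and had 278 reads (16.4 RPM) in MHs and 954 reads (22.5 RPM) in SHs. Its ratio of 0.46 (0.27 to 0.66) was the highest of the members with at least 200 reads. Pgr, the progesterone receptor, had 1 and 4 reads, and Esr2 had 0 and 1.

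Glucocorticoid receptor targets had genes called higher and none called lower. Of 17 listed genes, 16 were found and 15 had at least 10 reads. The metallothionein genes Mt1 and Mt2 were called higher, with a median of -0.06 for the list. Mt1 had 250 reads (14.7 RPM) in MHs and 1462 reads (34.5 RPM) in SHs (1.23, 1.03 to 1.43), and Mt2 had 16 reads (0.942 RPM) and 296 reads (6.99 RPM) (2.85, 2.17 to 3.72). Metals and stress also induce metallothioneins. Zbtb16 was the lowest at -0.36 (-0.51 to -0.22) and Per1 followed at -0.28 (-0.46 to -0.09).

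**Figure D3:**
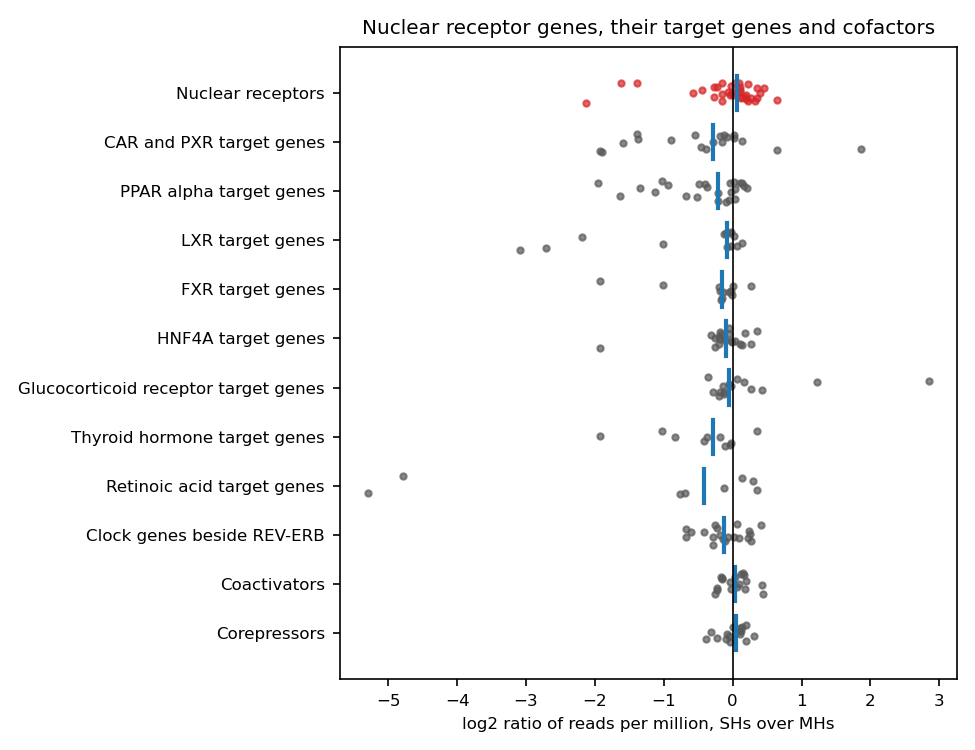
Each point is the log2 ratio of 1 gene with at least 10 reads, for the nuclear receptors in red and for the target and cofactor lists in grey, and blue bars are medians. The nuclear receptors have a median of 0.07, the target lists have medians from -0.41 to -0.06, with single genes as low as -5.30 (Lrat) and as high as 2.85 (Mt2), and the cofactors lie within a narrow range around 0.

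Of the oestrogen-related receptors, which control mitochondrial genes, Esrra had 406 reads (23.9 RPM) in MHs and 1294 reads (30.6 RPM) in SHs, a ratio of 0.35 (0.19 to 0.52). Esrrb had 4 and 17 reads, and Esrrg had 6 and 15. Both intervals included 0 and were wide, at 0.64 (-0.85 to 2.80) and -0.07 (-1.44 to 1.66).

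The Nr4a genes are induced within minutes by stress, hormones and cell isolation. Nr4a1, which encodes NUR77, was the only abundant one, with 819 reads (48.2 RPM) in MHs and 2405 reads (56.8 RPM) in SHs, a ratio of 0.23 (0.12 to 0.35). Nr4a2 lies on chromosome 2 (mm10, 57106830 to 57124003, minus strand) and had 10 reads (0.589 RPM) in MHs and 8 reads (0.189 RPM) in SHs. It was called lower with a wide interval (-1.62, -3.18 to -0.15), and the call was lost when SHs were thinned to the depth of MHs. Nr4a3 had 4 and 7 reads (-0.58, -2.49 to 1.71). Other immediate-early genes were high in both libraries, at 2061 RPM in MHs and 2179 RPM in SHs over 14 genes. Fos, Egr2 and Klf6 were called higher in SHs and none was called lower, with a median of 0.09. The part of the isolation procedure in the Nr4a levels was not tested.

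The testicular receptors, a pair of orphans, lay under 0. Nr2c1 (TR2) had 209 reads (12.3 RPM) in MHs and 434 reads (10.2 RPM) in SHs, a ratio of -0.27 (-0.51 to -0.02). Nr2c2 (TR4) had 288 reads (17.0 RPM) and 526 reads (12.4 RPM), a ratio of -0.45 (-0.66 to -0.24), and shares 30.7% of its exon bases with Mrps25 on the opposite strand. Nr6a1, the germ cell nuclear factor, had 204 and 548 reads, a ratio of 0.10 (-0.13 to 0.35). The remaining orphans were at or near 0, as Nr0b1 and Nr2e3 had no read in either library, Nr2e1 had 0 and 2, Nr2f1 had 1 and 2, and Nr5a1 had 1 and 5. A count of 3 reads corresponds to 0.177 RPM in MHs and 0.0708 RPM in SHs, and no fold is given for the members under 10 reads.

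Seen by level per kilobase of exon and 1000000 counted reads, the order of the receptors was much alike in both libraries. Hnf4a came first, with 131 (129 to 134) in MHs and 134 (133 to 136) in SHs. Nr0b2 followed with 70.6 (66.9 to 74.5) and 69.7 (67.4 to 72.1), and Rxra with 55.4 (53.9 to 56.9) and 63.1 (62.0 to 64.1). With all annotated exons, these 3 genes kept their places, and their intervals did not overlap within a library. In MHs, Nr1d1 at 38.5 (36.9 to 40.3) and Nr1h4 at 36.4 (34.5 to 38.3) did not differ beyond counting error. In SHs, Nr1h4 at 36.6 (35.4 to 37.8) was above Nr1d1 at 31.9 (31.0 to 32.9). Ppara, Nr2f6 and Nr1h3 came next in MHs, at 25.6 (24.4 to 26.9), 25.0 (23.6 to 26.4) and 24.3 (22.8 to 25.8), and their intervals overlapped. Nr1i3 fell from place 12 in MHs, at 9.06, to place 20 in SHs, at 3.45. These levels rest on all annotated exons, and with the shorter set of basic transcripts Nr1i3 was at 12.2 in MHs and 4.66 in SHs. The order of genes close in level depended on this choice, which the counting intervals do not cover. With basic transcripts, Nr1d1 and Nr1h4 were at 43.6 and 36.4 in MHs and at 36.1 and 36.6 in SHs. Nr2f6 was then at 33.6 in MHs, above Ppara at 27.8 and Nr1h3 at 28.4. In SHs, Nr0b2 was at 69.7 and Rxra close to it at 67.5.

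**Figure D4:**
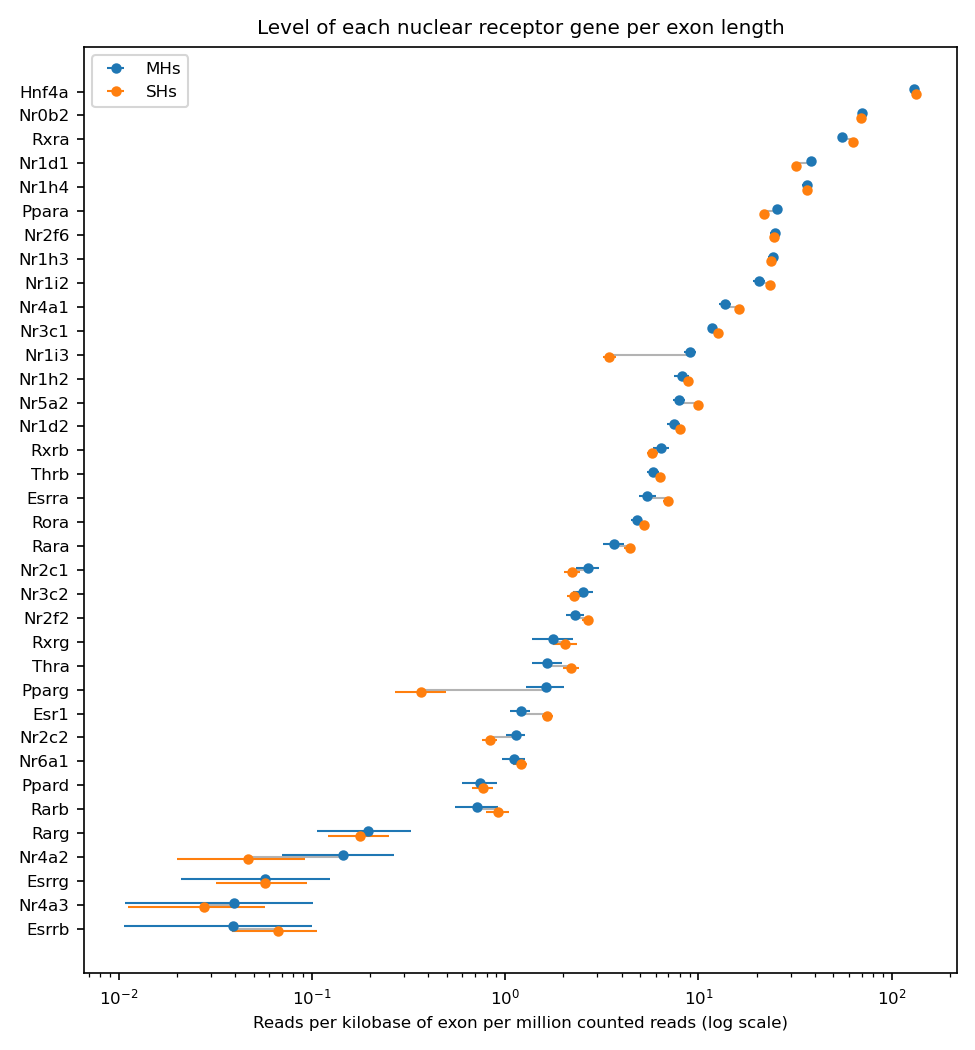
Level per kilobase of exon and 1000000 counted reads is shown on a log axis for the 36 nuclear receptor genes with at least 10 reads, with 95% counting intervals as bars. Hnf4a, Nr0b2 and Rxra lead in both libraries, and the long grey lines of Nr1i3 and Pparg show the largest gaps between MHs and SHs among genes above a level of 0.3.

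Cofactors with at least 10 reads differed by less than 1.5-fold. Of 19 coactivators, 18 had as many reads, and none was called lower or higher, beside 6.20% and 3.50% of all genes. Their intervals lay under 0 for 3 and above 0 for 3, beside 15.5% and 16.8% of all genes. Their median was 0.04, and their range ran from Nrbf2 at -0.26 to Ppargc1b, a coactivator of mitochondrial genes, at 0.44 (0.16 to 0.74). Of 16 corepressors, none was called lower or higher, with a median of 0.05. Intervals lay under 0 for 2 and above 0 for 3 of them. Zbtb20, a repressor abundant in liver, was the lowest at -0.38 (-0.44 to -0.32).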

How the data were processed

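For MHs and SHs, the authors deposited whole-number read counts per gene symbol, without normalization. Per the methods, poly(A) RNA was sequenced on an Ion Proton system, and reads were trimmed and aligned to mm10 in CLC Genomics Workbench. The program, annotation and use of strand behind the deposited counts are not given in the sources used here, so paralogs and overlapping genes may share reads in an unknown way.

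RPM and log2 ratios with 0.5 added reads were computed from the counts in Python 3.11.15 (numpy 2.4.6, pandas 2.3.3, scipy 1.17.1). Totals were 16979136 reads for MHs and 42356444 for SHs. Intervals were 95% Clopper-Pearson for ratios and exact Poisson for levels, and cover counting error only. Exon lengths and overlaps came from GENCODE M21. No test between conditions was made, for want of replicates. The calculation was tested on simulated counts.

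The members and all gene lists were chosen with earlier results of these data known. All members, and the lowest and highest genes with at least 200 reads of each list, were to be named, and 1 such list gene is not reported here. Other named list genes were chosen after their values were seen. Alternatives were edgeR 4.0.16 TMM and DESeq2 1.42.0 size factor scaling (R 4.3.3), totals without the 10 top genes or mitochondrial genes, other read minimums, folds and added reads, and thinning of SHs.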

Additional observations from a re-analysis of the deposited data

How the results depend on the processing

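Nr1i3, Pparg and Nr4a2 were called lower under each of the 4 other scalings and with 1 or 2 added reads, and the ratios of all 36 members stayed within their counting intervals under these settings and when SHs were thinned to the depth of MHs. The scalings moved the median of all genes by -0.03 to 0.03. With a minimum of 200 reads 1 member was called lower, Nr1i3, because Pparg and Nr4a2 have fewer reads. With a minimum of 100 reads, or SHs thinned, Nr4a2 lost its call. At the lower fold threshold tried, 3 members were called higher, namely Thra, Esr1 and Esrra, and 4 lower, with Nr2c2 added. Intervals above 0 numbered 9 with TMM or DESeq2 scaling, which lost Nr3c1, Rora and Hnf4a, and 14 without the 10 genes with the most reads. Another choice, made after seeing the data, was to leave out the members whose exons overlap another gene, among them Nr1i3. Then 2 members were called lower, Pparg and Nr4a2, and 4 intervals lay under 0 and 8 above 0. Except at the minimum of 200 reads, the shares over all genes were not computed at these settings. The median of the retinoic acid targets was 0.01 with at least 100 reads. Without a read minimum the median was 0.27 for lymphocyte and neutrophil markers and -0.82 for cholangiocyte markers, most of which had few reads. The cause of other differences was not tested. No paired analysis was possible because each condition had 1 library.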

Other observations

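RXR forms pairs with many of the other members, so the level of the RXR genes was set beside that of 14 genes whose products pair with RXR, which were grouped after their values were seen. Per kilobase of exon and 1000000 counted reads, the 3 RXR genes summed to 63.6 in MHs and 70.9 in SHs, and Rxra made up 87.1% and 89.0% of these sums. The 14 partner genes, namely the retinoic acid, thyroid hormone and vitamin D receptors, the PPAR and LXR genes, Nr1h4, Nr1i2 and Nr1i3, summed to 138 in MHs and 133 in SHs. The partners thus stood at 2.18 times the RXR sum in MHs and 1.88 times in SHs, and at 2.24 and 1.93 times with exon lengths from basic transcripts. These are transcript levels of 1 library each and do not give the amounts of protein.

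By subfamily, the Nr1 genes summed to 666 RPM in MHs and 631 RPM in SHs (log2 ratio -0.08, -0.11 to -0.05). The Nr2 genes summed to 1089 and 1141 RPM (0.07, 0.04 to 0.09), the Nr3 genes to 148 and 165 RPM (0.16, 0.10 to 0.23) and the Nr5 and Nr6 genes to 59.0 and 71.6 RPM (0.28, 0.18 to 0.38). The counting intervals of these sums left out 0, and the spread between animals was not measured. Among the markers of the portal side, Aldh1b1 was called higher in SHs, at 1.29. The markers of bile duct cells summed to 21.4 RPM in MHs and 24.5 RPM in SHs, with Krt19 at 1 read in each library, Muc1 at 0 in MHs and Cftr at 0 in SHs. The lymphocyte and neutrophil markers summed to 0.648 RPM in MHs and 0.260 RPM in SHs.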
